A study of Mus musculus with 4 samples.

Results

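The axon guidance ligands and receptors were taken as every gene with a single symbol in the platform annotation that belongs to the Eph receptors, ephrins, semaphorins, plexins, neuropilins, Slits, Robos or netrins. The rule reads names alone and no measured value. It found 63 of the 18193 named genes, measured by 142 of the 45101 probe sets on the array. RNA was measured on 4 Affymetrix Mouse430_2 GeneChip arrays of mouse liver cell lines, each from 5 µg of total RNA. The comparison asked how resident liver stem cell lines (RLSC) differ from MMH-D3, a differentiated hepatocytic line.

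MMH-D3 was measured on 2 arrays, and its labels give no genotype, age or culture for either array. The RLSC group held 2 lines with 1 array each. MetE14/3 came from embryonic liver carrying the cyto-Met transgene, taken 14 days post coitum, and goes back to a single clone, B2. WTE14/1 came from wild-type liver of the same age. The labels disagree on its name, WTE14/1 in the title and WT E14/3 as source, and the title is used here. Both RLSC lines had been picked for palmate colonies and expanded for about 50 generations on collagen before freezing. Genotype and line cannot be told apart with 1 array each, and the 2 arrays of MMH-D3 may be repeats of 1 culture, so the p-values reflect nothing beyond the spread of these 4 arrays, which may be technical and in RLSC includes the difference between lines.

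Axon guidance cues tell a growing cell process where to go, and the same families act outside the nervous system in blood vessels and epithelia. Ephrins sit on the cell surface and bind Eph receptor tyrosine kinases on a neighbouring cell, with signals passing into both cells. Semaphorins are secreted or membrane-bound ligands of plexins, and the secreted class 3 semaphorins bind neuropilins, which present them to plexins. Slits are secreted ligands of Robo receptors, and netrins are laminin-related ligands of Dcc and Unc5 receptors.

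Between RLSC and MMH-D3 the members split within families and none passed the test. Netrin 1 (Ntn1), semaphorin 3A (Sema3a), neuropilin 1 (Nrp1) and semaphorin 3B (Sema3b) lay at least 4-fold above MMH-D3 on the normalized log2(signal + 4) scale, with both lines above both arrays. Sema4g, Sema4a and ephrin A1 (Efna1) lay at least 4-fold below in the same way. Of the 63 genes, 45 had a probe set past the filter on low signal (a level of about 11.7) and were tested with limma across 12598 genes. No member passed a Benjamini-Hochberg adjusted p of 0.05, while 0.913% of all genes tested did (0.397% higher and 0.516% lower in RLSC). At an unadjusted p under 0.05 there were 7 members, against 12.4% of all genes: 4 were higher (5.27% of all genes) and 3 lower (7.1%). At the level of probe sets none of the members' passed (0.733% of all did), and 18 of the 86 member probe sets past the filter had such a p against 10.7% of all probe sets, but several of these measure the same gene.

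Both RLSC lines lay above both MMH-D3 arrays at 13 of the 45 tested members and below both at 12, against 20.8% and 21.4% of all genes tested. Counted over all 63 genes without a filter these numbers were 17 and 16, against 18.9% and 20.7%. At least a 4-fold difference with groups apart was found for 4 members higher and 3 lower in RLSC, against 2.75% and 4.39% of all genes tested. A member that passed the filter only through the group where it is high had to differ, so these counts describe the members and test nothing, and the same holds for the lists of other genes below. Whether groups overlap was counted after normalization. The median difference over the tested members was 0.33 on the log2 scale, RLSC minus MMH-D3, against 0.03 over all genes tested. All differences below are on the log2(signal + 4) scale after quantile normalization, with their moderated standard error (SE), and all signals are the deposited ones.

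**Figure D1:**
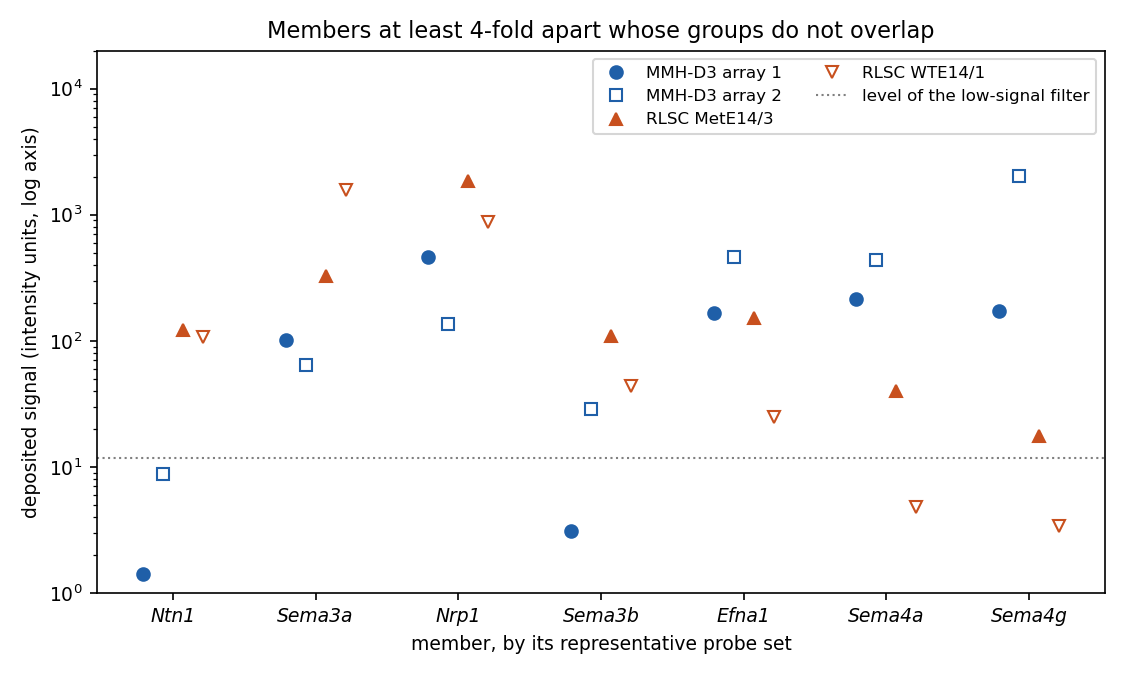
Deposited signal on each of the 4 arrays (log axis) for the 7 members whose difference on the normalized log2(signal + 4) scale was at least 4-fold with groups that do not overlap, each by its representative probe set, with the dotted line at the filter level of about 11.7. Ntn1, Sema3a, Nrp1 and Sema3b are higher on both RLSC arrays, and Efna1 has MetE14/3 at 153, close to MMH-D3 array 1 at 165, while WTE14/1 stands at 24.6.

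Depth and quality were judged from the arrays as a whole. Median signals ranged from 16.9 to 28.0 and the trimmed mean was 200.001 on every array. The 24 probe sets for spiked poly-A control RNA were 10.7-fold higher (median) on 1 array of each group, MetE14/3 and MMH-D3 array 1, than on the remaining arrays. The ratio was 0.879 for the 18 hybridization controls. These pairs are called the high and the low poly-A pair, and differences within each are given where they matter. Each pair holds 1 array of each group and 1 RLSC line, so line and pair cannot be told apart. Of 7 tested hepatocyte markers 2, Apob and Afp, were lower in RLSC (limma adjusted p = 0.0371 and 0.0391), against 0.516% of all genes tested. The hepatocyte marker Apoa2 lay above both MMH-D3 arrays (1.10, SE 0.71). Summed marker signals were 5526 and 9823 in MMH-D3 against 402 (MetE14/3) and 255 (WTE14/1) in RLSC. Of 8 tested mesenchymal markers 3, Acta2, Tnc and Tagln, were higher in RLSC, against 0.397% of all genes tested. Tagln passed the filter only through the RLSC arrays. Vim overlapped between groups (0.12, SE 0.18). Without passing, 6 of 6 tested epithelial markers lay below both MMH-D3 arrays (21.4% of all genes tested). The part of these shifts in the results below was not tested. In bulk RNA, fewer cells of a type and less RNA per cell cannot be told apart.

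Promoters are shown for 4 members with a single promoter entry, of which Sema3a and Nrp1 lay above MMH-D3 and Sema3e and Sema4g below it. Ntn1 had no promoter entry and Sema4a had 4, so neither is shown. Each line holds the 250 bases before the start in RefSeq's single promoter entry for the gene (assembly GRCm38.p6, plus strand). Capitals mark matches to the motifs searched on both strands.
Sema3a, chr5:13396534-13396783: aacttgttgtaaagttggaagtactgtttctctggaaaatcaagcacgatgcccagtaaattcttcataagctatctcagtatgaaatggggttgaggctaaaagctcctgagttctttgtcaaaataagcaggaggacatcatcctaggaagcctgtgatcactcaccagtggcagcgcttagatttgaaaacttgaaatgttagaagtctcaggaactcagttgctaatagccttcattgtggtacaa
Nrp1, chr8:128358823-128359072: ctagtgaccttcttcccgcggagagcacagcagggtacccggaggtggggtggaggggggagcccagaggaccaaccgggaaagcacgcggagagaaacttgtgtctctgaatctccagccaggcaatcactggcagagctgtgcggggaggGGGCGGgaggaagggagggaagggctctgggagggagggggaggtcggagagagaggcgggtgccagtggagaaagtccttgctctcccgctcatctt
Sema3e, chr5:14025026-14025275: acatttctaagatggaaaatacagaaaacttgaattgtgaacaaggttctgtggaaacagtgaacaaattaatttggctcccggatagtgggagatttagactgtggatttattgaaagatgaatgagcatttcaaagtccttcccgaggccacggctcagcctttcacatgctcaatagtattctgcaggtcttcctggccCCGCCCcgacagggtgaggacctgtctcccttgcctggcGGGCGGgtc
Sema4g, chr19:44989094-44989343: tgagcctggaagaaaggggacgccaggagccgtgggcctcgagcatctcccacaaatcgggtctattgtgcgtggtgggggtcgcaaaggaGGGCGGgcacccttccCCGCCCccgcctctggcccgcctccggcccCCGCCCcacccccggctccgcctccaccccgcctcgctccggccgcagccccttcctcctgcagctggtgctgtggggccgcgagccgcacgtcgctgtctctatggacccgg

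The motifs searched were the TATA box (TATAAA), the GC box bound by Sp1 family factors (GGGCGG), the CCAAT box (CCAAT), the TEAD motif (GGAATG), the E-box bound by Snail and Zeb factors (CAGGTG) and the AP-1 motif (TGANTCA). Only the GC box matched in these 4 windows, with 1 match in Nrp1, 2 in Sema3e, 3 in Sema4g and 0 in Sema3a. The GC box was present in 32.7% of all 32851 promoter windows of this length and in 71.8% of the 71 windows of the 55 members with an entry, whose median GC content was 64.0% against 52.4% over all. The other motifs were present in a lower share of the member windows than of all windows. The shares were 2.82% against 12.4% for the TATA box, 26.8% against 33.8% for CCAAT, 11.3% against 12.6% for the TEAD motif, 12.7% against 17.2% for the E-box and 4.23% against 6.75% for AP-1. The 4 windows differed in base composition, from 40.8% GC in Sema3a to 73.2% in Sema4g. A match is a description of the letters and not a bound site.

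Class 3 semaphorins, the secreted ligands, went in different directions. Sema3a, a repellent that binds Nrp1, had signals of 326 on the MetE14/3 array and 1580 on the WTE14/1 array, compared with 101 and 64.7 on the MMH-D3 arrays. Both lines lay above both MMH-D3 arrays, with WTE14/1 far above MetE14/3. The difference was 3.04 (SE 0.82, limma adjusted p = 0.193), with 1.42 in the high and 4.66 in the low poly-A pair. Its 3 probe sets past the filter agreed in sign, from 1.58 to 3.04. The gene did not pass under any alternative, with adjusted p from 0.0503 to 0.646.

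Sema3b, a secreted semaphorin often described as a growth suppressor, stood at 109 (MetE14/3) and 43.6 (WTE14/1), with 3.10 and 28.6 in MMH-D3. The groups did not overlap, but WTE14/1 and MMH-D3 array 2 were close. Its difference of 2.05 (SE 0.88, limma adjusted p = 0.427) was 3.81 in the high poly-A pair and 0.29 in the low pair. MMH-D3 array 1 lay below the filter level. In the other Sema3b probe set past the filter the groups overlapped, at 57.9 (MetE14/3) and 15.9 (WTE14/1) against 1.80 and 32.5. That probe set gave 1.12 (SE 1.01), with 3.30 in the high and -1.07 in the low poly-A pair.

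Sema3e, the ligand that binds Plxnd1 without a neuropilin, went the other way. Its signals were 469 and 284 in MetE14/3 and WTE14/1 against 869 and 1488 in MMH-D3. Neither RLSC line reached the lower MMH-D3 array. The difference was -1.67 (SE 0.49, limma adjusted p = 0.226), or -0.87 in the high and -2.48 in the low poly-A pair. All 4 probe sets of Sema3e lay below in RLSC, from -2.14 to -1.38, and each had an unadjusted p under 0.05. Its receptor Plxnd1 had overlapping groups, at 187 and 126 in RLSC and at 65.5 and 127 in MMH-D3.

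Sema3c, an attractant in the developing heart and brain, had high signals on every array, 4640 and 3847 in the RLSC lines and 4166 and 5902 in MMH-D3. The groups overlapped and the difference was -0.15 (SE 0.30). Sema3f, the main semaphorin ligand of Nrp2, also overlapped, with WTE14/1 at 470 and MetE14/3 at 165 on either side of the MMH-D3 arrays (236 and 392).

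The 6 transmembrane class 4 semaphorins tested are ligands of B plexins among others. Of these, 4 lay below both MMH-D3 arrays and 1 above, against 21.4% and 20.8% of all genes tested. Their median difference was -1.30, against 0.03 over all genes tested. Sema4g had signals of 17.6 (MetE14/3) and 3.39 (WTE14/1), compared with 173 and 2014 on the MMH-D3 arrays. The MMH-D3 arrays themselves differed by 3.38 on the log2 scale, more than the RLSC lines did (1.82). WTE14/1 and the mean of the RLSC lines after normalization lay under the filter level. Sema4g thus passed the filter only through the MMH-D3 arrays, which fixes its sign. The difference of -5.67 (SE 1.18, limma adjusted p = 0.111), 51.1-fold on this scale, was -3.07 in the high and -8.28 in the low poly-A pair. It was -6.20 with a pseudocount of 1 and -4.68 with 16, and it ranged from -7.27 without MMH-D3 array 1 to -3.99 without MMH-D3 array 2.

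Sema4a, a ligand with roles in immune cells and in the retina, had signals of 40.1 on the MetE14/3 array and 4.76 on the WTE14/1 array, compared with 216 and 438 in MMH-D3. Both RLSC lines lay below both MMH-D3 arrays, and WTE14/1 lay under the filter level. The difference was -4.12 (SE 0.89, limma adjusted p = 0.122), and the other probe set gave -5.12 (SE 0.87, limma adjusted p = 0.0774 over all probe sets). Without MetE14/3 the gene passed, at -5.38 (SE 0.70, limma adjusted p = 0.0274, in a range of 0.0274 to 0.572 over all alternatives). That fit has 1 RLSC array, so its SE rests on the MMH-D3 arrays and the spread over all genes, and WTE14/1 is assumed to vary like MMH-D3. Within the pairs the difference was -2.41 (high) and -5.82 (low).

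Sema4b stood at 216 (MetE14/3) and 53.5 (WTE14/1), with 327 and 322 in MMH-D3. It differed by -1.73 (SE 0.76, limma adjusted p = 0.440). The MMH-D3 arrays were nearly equal here and the RLSC lines were not. Sema4d, a ligand of Plxnb1, differed by -0.87 (SE 0.62), with signals of 106 and 46.2 against 89.8 and 137 that overlapped as deposited and not after quantile normalization. Sema4c, a ligand of Plxnb2, was the class 4 member above MMH-D3, at 83.8 and 105 against 28.4 and 52.2 (0.97, SE 0.49, limma adjusted p = 0.503).

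Among the other semaphorins past the filter, Sema5b and Sema6d lay below both MMH-D3 arrays, at -0.59 (SE 0.54) and -1.12 (SE 0.67), though Sema6d overlapped as deposited, and Sema6a, Sema6c and Sema7a overlapped. The 3 Sema6d probe sets past the filter disagreed in sign, from -1.12 to 0.49.

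Neuropilin 1, the shared co-receptor of class 3 semaphorins and of VEGF, had signals of 1866 (MetE14/3) and 883 (WTE14/1), compared with 463 and 136 on MMH-D3 arrays 1 and 2. Both RLSC lines lay above both MMH-D3 arrays. The difference was 2.37 (SE 0.71, limma adjusted p = 0.234), 1.96 in the high and 2.78 in the low poly-A pair. All 4 Nrp1 probe sets lay above, from 2.15 to 3.33, each with an unadjusted p under 0.05. Nrp1 did not pass under any alternative, with adjusted p from 0.0741 to 0.627.

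Neuropilin 2 (Nrp2), which pairs with other class 3 ligands, had 376 in MetE14/3 and 71.6 in WTE14/1, on either side of the MMH-D3 arrays at 124 and 104. Its difference of 0.34 (SE 0.86) was 1.37 in the high and -0.68 in the low poly-A pair.

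The plexins, the signalling receptors of semaphorins, had differences between -0.50 and 1.01. Of 8 tested, Plxna1 lay above both MMH-D3 arrays (20.8% of all genes tested), Plxnb2 below both (21.4%) and 6 overlapped. Plxna1, which signals together with Nrp1, had 640 and 557 in MetE14/3 and WTE14/1 against 260 and 333 in MMH-D3. It differed by 0.95 (SE 0.40, limma adjusted p = 0.411), with 1.16 and 0.75 in the high and low poly-A pairs. Plxnb2, a widely expressed epithelial plexin, had 1902 and 1235 against 2215 and 2323, a difference of -0.50 (SE 0.34, limma adjusted p = 0.651).

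Plxna2 had no net difference (-0.00031, SE 0.74), with 565 in MetE14/3 and 156 in WTE14/1 and the MMH-D3 arrays between them at 180 and 408. Plxnb1 and Plxna3 differed by 1.01 (SE 0.73) and 0.68 (SE 0.58) with overlapping groups in their representative probe sets. In the other probe set of each, both RLSC lines lay above both MMH-D3 arrays, for Plxna3 by a narrow margin. These gave 1.34 (SE 0.56) for Plxnb1 and 0.45 (SE 0.49) for Plxna3.

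**Figure D2:**
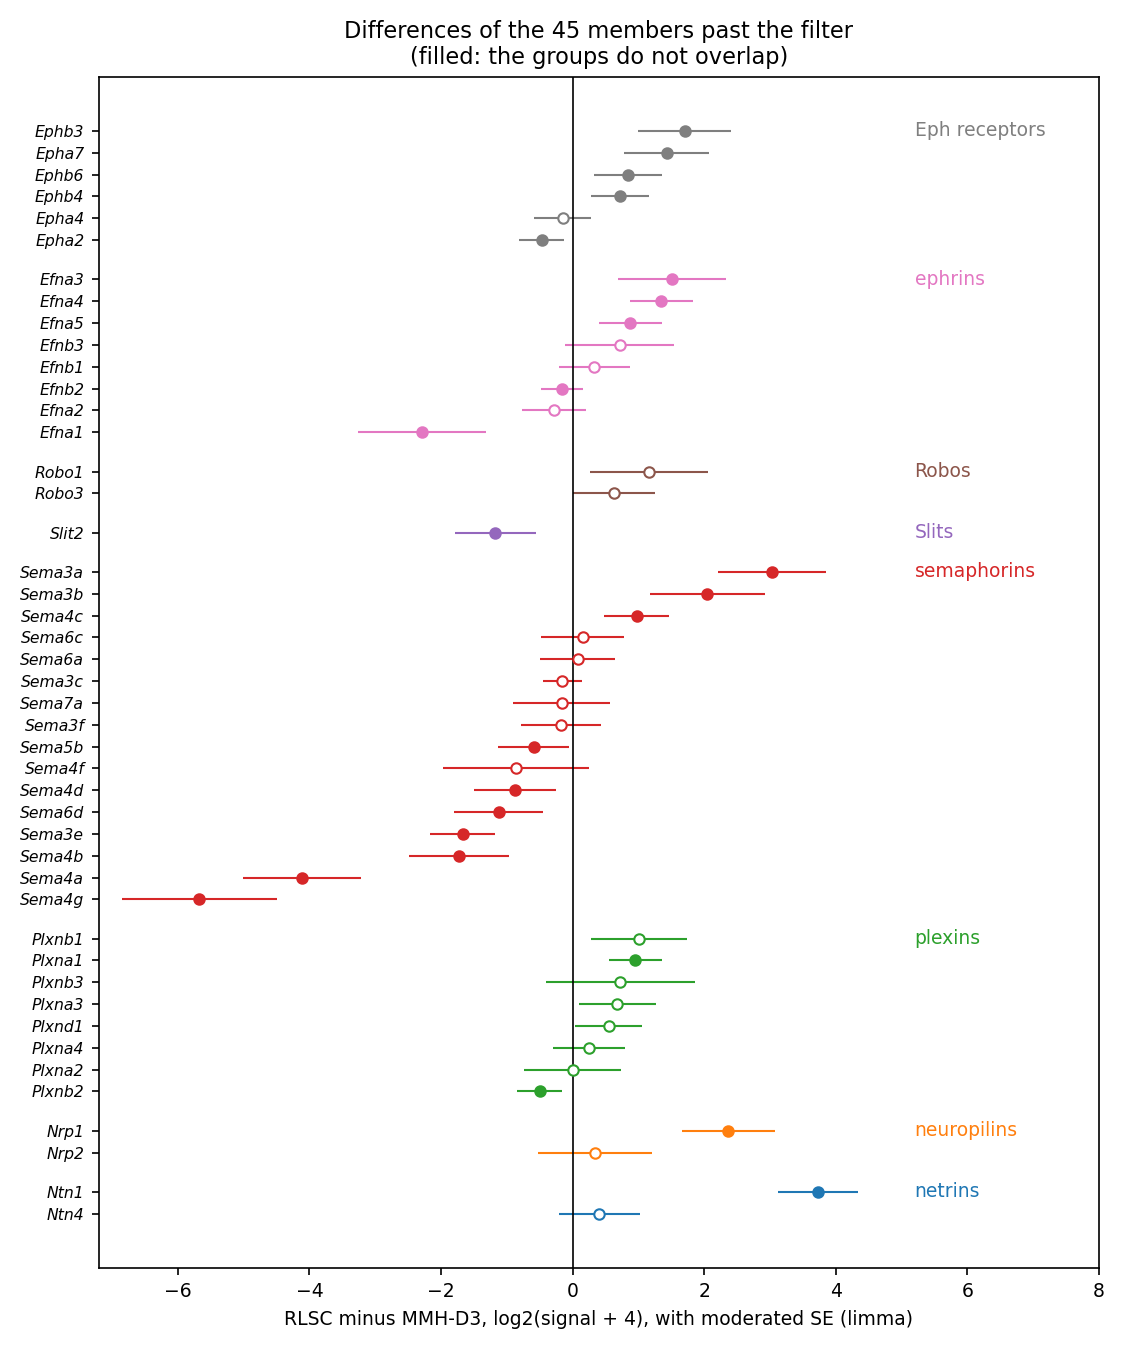
Difference RLSC minus MMH-D3 on the log2(signal + 4) scale with the moderated SE for each of the 45 members past the filter, grouped by family, filled where the groups do not overlap. Semaphorins span -5.67 to 3.04, plexins only -0.50 to 1.01, and the 3 B-type Eph receptors all lie above 0.

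Ephrins of both kinds were measured. Efna1, a membrane-anchored ligand of A-type Eph receptors, had signals of 153 on the MetE14/3 array and 24.6 on the WTE14/1 array, compared with 165 and 463 in MMH-D3. MetE14/3 lay only slightly under MMH-D3 array 1. The difference of -2.29 (SE 0.97, limma adjusted p = 0.421) was -0.26 in the high and -4.32 in the low poly-A pair, and -0.93 without WTE14/1. Both Efna1 probe sets gave about the same value (-2.29 and -2.22).

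Efna4, another A-type ligand, had the opposite sign. Its signals were 219 and 174 in MetE14/3 and WTE14/1 against 49.1 and 84.5, a difference of 1.35 (SE 0.47, limma adjusted p = 0.318) with both lines above. Efna5 (255 and 465 against 159 and 197) and Efna3 (45 and 56.3 against 26.2 and 4.16) also lay above both MMH-D3 arrays, at 0.88 (SE 0.48) and 1.52 (SE 0.82). Efna2 overlapped.

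Ephrin B2 (Efnb2), the transmembrane ligand that marks arteries in vessels, had nearly the same signal on all arrays, 1390 and 1281 in the RLSC lines and 1731 and 1395 in MMH-D3. The RLSC lines lay below both MMH-D3 arrays by a narrow margin. The difference was -0.16 (SE 0.32), between -0.32 and -0.16 over its 4 probe sets. Efnb1 and Efnb3 overlapped between groups. Ephb4, the preferred receptor of ephrin B2, had 177 and 196 against 85.5 and 120, a difference of 0.73 (SE 0.44, limma adjusted p = 0.613).

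Of the 6 Eph receptors tested, Epha7, Ephb3, Ephb4 and Ephb6 lay above both MMH-D3 arrays and Epha2 below both. The shares over all genes tested were 20.8% and 21.4%. Ephb3, a receptor that helps to sort epithelial cells in the gut crypt, had 58.4 and 103 in MetE14/3 and WTE14/1 against 29.4 and 9.79 (1.71, SE 0.71, limma adjusted p = 0.407). Epha7 had 204 and 196 against 28.6 and 132, so the MMH-D3 arrays differed more than the RLSC lines (1.43, SE 0.65).

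Epha2, an epithelial receptor of Efna1, had 891 and 991 in MetE14/3 and WTE14/1 against 1348 and 1341 in MMH-D3. The groups were apart by a small margin, with a difference of -0.47 (SE 0.34, limma adjusted p = 0.679). Epha4 had 402 and 653 against 524 and 610 and overlapped. No other A-type receptor than Epha2, Epha4 and Epha7 passed the filter.

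Netrin 1 had the smallest p of all members. The probe set that represents Ntn1 had signals of 122 (MetE14/3) and 108 (WTE14/1), compared with 1.40 and 8.76 on the MMH-D3 arrays, both below the filter level. The RLSC lines were close to each other and far above both MMH-D3 arrays. The difference was 3.73 (SE 0.61, limma adjusted p = 0.0583), or 13.3-fold on this scale, and 4.45 and 3.02 in the high and low poly-A pairs. Ntn1 passed with arrays shifted to a common median (3.63, SE 0.60, limma adjusted p = 0.0460) and with a pseudocount of 16 (2.58, SE 0.40, limma adjusted p = 0.0489), in a range of 0.0460 to 0.998 over all alternatives.

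The other Ntn1 probe set showed no such gap, with 34.8 and 25.3 in RLSC against 30.1 and 14.0 in MMH-D3 (0.19, SE 0.64). It came to represent the gene with a pseudocount of 1 (0.23), without MetE14/3 (-0.19) and without WTE14/1 (0.57). Followed as a probe set of its own, the one with the large difference ranged from 2.58 to 4.43 over the 11 alternatives in which it passed the filter. It passed only through the RLSC arrays, which fixes its sign. Ntn4, a basement membrane netrin, had 96.3 and 178 against 45.6 and 158 and overlapped.

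**Figure D3:**
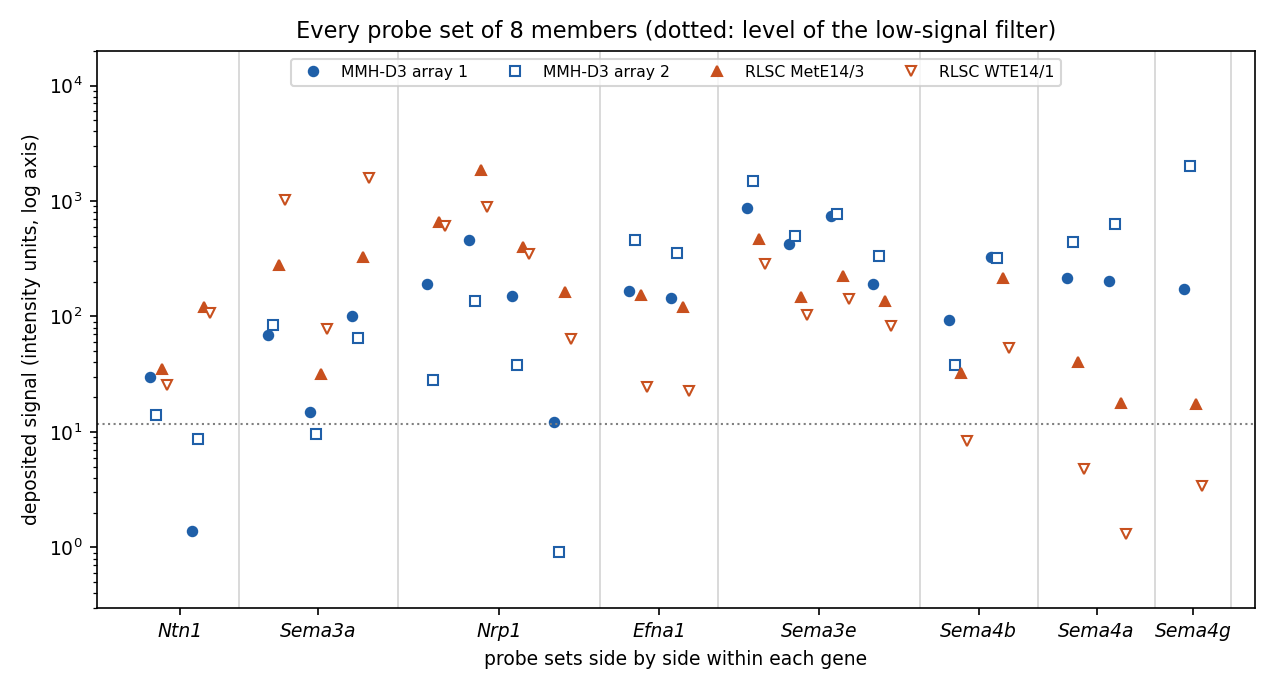
Deposited signal (log axis) of every probe set of 8 members on each of the 4 arrays, with the filter level dotted. The 4 probe sets of Nrp1, the 3 of Sema3a, the 4 of Sema3e and the 2 of Sema4a each keep their order of groups, while the 2 of Ntn1 differ, with the groups overlapping in the one on the left.

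Slits and Robos had few members past the filter. Slit2, the tested Slit, had 70.4 (MetE14/3) and 121 (WTE14/1), compared with 106 and 338 in MMH-D3. It differed by -1.18 (SE 0.61, limma adjusted p = 0.530), with groups that overlapped as deposited and not after quantile normalization. Robo1, its receptor, had 112 in WTE14/1 against 12.1 in MetE14/3, 10.3 and 18.5 in MMH-D3. WTE14/1 stood alone above the other arrays. The difference was 1.16 (SE 0.90), and it was -0.12 without WTE14/1. Robo3 had signals of 7.70 to 29.6 on all arrays.

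The 18 members below the filter were Epha1, Epha3, Epha5, Epha6, Epha8, Epha10, Ephb1, Sema3d, Sema3g, Sema5a, Sema6b, Plxnc1, Slit1, Slit3, Robo2, Robo4, Ntn3 and Ntn5. None of their probe sets reached a signal above 27.4 (Sema3g, MMH-D3 array 1) on any array, and no statement on a difference is made for them. Robo4, a Robo of endothelium, reached 20.5. Endothelial markers were low too: their signals summed to 70.1 and 173 over 10 genes in MMH-D3 and to 99.2 and 136 in RLSC, with Pecam1 and Tie1 under the filter level on every array and none at 0. Of 4 tested, none passed.

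Neural markers summed to 722 and 720 in MMH-D3 and to 556 and 1125 in RLSC over 13 genes. Of 11 tested none passed, and 3 had an unadjusted p under 0.05 (12.4% of all genes tested). The list median was -0.08. Above both MMH-D3 arrays lay 3 and below both 3, against 20.8% and 21.4% of all genes tested. Snap25 lay under the filter level on every array. Tubb3, a tubulin of neurons chosen here after its values were seen, stood at 86.3 and 380 in MetE14/3 and WTE14/1 against 20.1 and 16.7 (2.92, SE 0.77, limma adjusted p = 0.186). Gap43, a protein of growing axons, was at 1.77 (SE 0.55) and the myelin gene Mbp at -1.07 (SE 0.44). Their part in the results above was not tested.

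Between the RLSC lines, MetE14/3 lay at least 4-fold above WTE14/1 at 5 of the 45 members (2.8% of all genes tested) and WTE14/1 above MetE14/3 at 3 (2.33%). The MMH-D3 arrays lay as far apart at 4 members (5.96% of all genes tested). With 1 array for each line there is no test. Efna1, Nrp2, Sema4a, Sema4f and Sema4b were higher in MetE14/3, by 2.77, 2.57, 2.56, 2.55 and 2.22 on the log2 scale. Plxnb3 (-3.29), Robo1 (-2.57) and Sema3a (-2.33) were higher in WTE14/1.

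For Sema4f the MMH-D3 arrays differed about as much (-2.38, array 2 minus array 1) as the lines, with signals of 49.9 and 6.77 in MetE14/3 and WTE14/1 and 74.5 and 15.0 in MMH-D3. The other Sema4f probe set past the filter showed no such gap between the lines. It had 14.0 in MetE14/3 and 18.2 in WTE14/1, a difference of 0.11 after normalization. For Nrp2 and Sema4b the MMH-D3 arrays differed by -0.52 and -0.13. Plxnb3, a plexin of oligodendrocytes, had 85.8 in WTE14/1 against 3.70 in MetE14/3, 4.40 and 20.4 in MMH-D3, and its other probe set lay below the filter. All 3 Nrp2 probe sets past the filter, like the 4 of Plxna2, had MetE14/3 as the highest array.

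**Figure D4:**
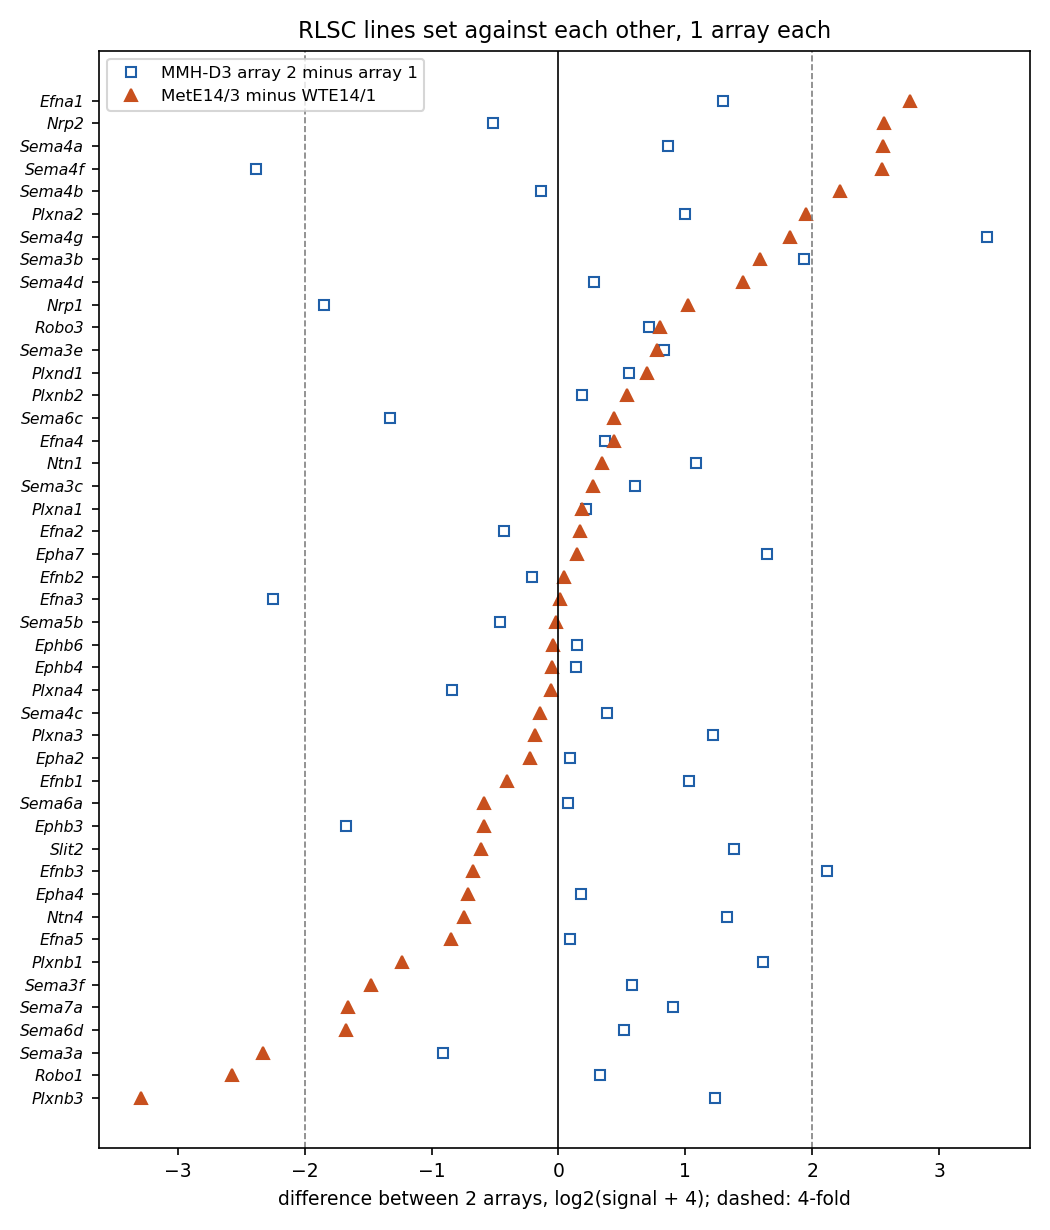
Difference between the RLSC lines (triangles, MetE14/3 minus WTE14/1) and between the MMH-D3 arrays (squares, array 2 minus array 1) on the log2(signal + 4) scale for the 45 members past the filter, with dashed lines at 4-fold. Triangles lie beyond 4-fold for 8 members and squares for 4, and only Sema4f has both.

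Within the poly-A pairs, Ntn1, Sema3a, Nrp1, Sema4a, Sema4g, Sema4b and Sema3e kept their direction in both. The sizes differed most for Sema4g, Efna1, Sema4a, Sema3a and Sema3b. Blocking on the pair called no member with limma, while 164 genes passed over all.

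**Figure D5:**
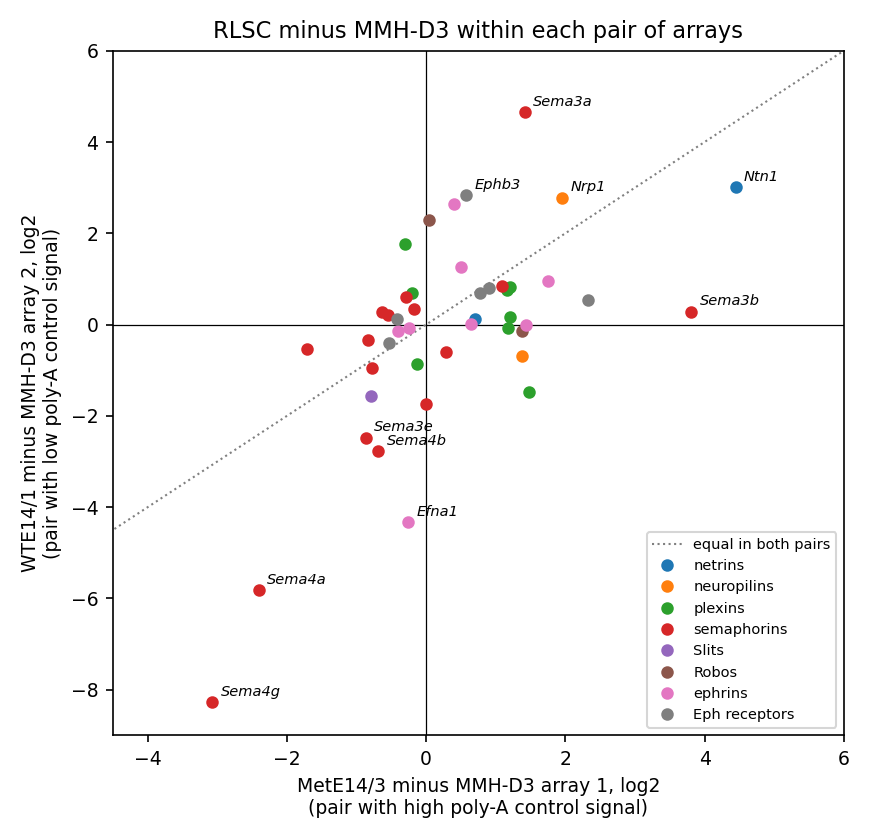
Difference RLSC minus MMH-D3 on the log2 scale in the low poly-A pair (vertical, WTE14/1) against the high poly-A pair (horizontal, MetE14/3) for the 45 members, coloured by family, with the line of equality dotted. Sema4g (-3.07 and -8.28) and Sema4a (-2.41 and -5.82) lie far below 0 in both, and Sema3b (3.81 and 0.29) and Efna1 (-0.26 and -4.32) differ mainly in one pair.

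The partners of these families outside the rule were read from lists of effectors, co-receptors and netrin receptors. Of 61 tested intracellular effectors, 1 was higher in RLSC and none lower, against 0.397% and 0.516% of all genes tested. That was Tiam1, an exchange factor that activates Rac and binds ephrin and Eph proteins, with 96.3 and 125 in MetE14/3 and WTE14/1 against 0.6 and 1.61 in MMH-D3. It differed by 4.40 (SE 0.54, limma adjusted p = 0.0361), 4.41 and 4.39 in the high and low poly-A pairs. It did not pass without MMH-D3 array 1 (limma adjusted p = 0.0888), without MMH-D3 array 2 (0.255) or without a filter (0.0649), and fell below the filter when either RLSC line was left out. Tiam1 passed the filter only through the RLSC arrays. Of the list, 14 lay above and 11 below both MMH-D3 arrays, against 20.8% and 21.4% of all genes tested. At an unadjusted p under 0.05 there were 9, against 12.4% of all genes tested. The list median was 0.14 against 0.03 over all genes tested.

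Further effectors were chosen after their values were seen, and none passed. They lay on both sides of MMH-D3. The kinase Fyn, which acts downstream of ephrins and semaphorins, had 202 and 446 against 19.7 and 20.9 (3.52, SE 0.57, limma adjusted p = 0.0569). The Slit-Robo GTPase-activating protein Srgap3 had 129 and 52.1 against 1.90 and 2.51 (3.59, SE 0.70, limma adjusted p = 0.0917). Srgap3 passed the filter on low signal only through the RLSC arrays, which fixes its sign. Fyn passed under 4 alternatives and Srgap3 under none. Below MMH-D3 lay the exchange factor Ngef, which acts downstream of EphA receptors, at -1.41 (SE 0.53), and the actin-binding protein Ablim1, at -1.08 (SE 0.42).

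Of 31 tested co-receptors and proteoglycans none passed, and 7 had an unadjusted p under 0.05, against 12.4% of all genes tested. Of these 31 genes 10 lay above and 7 below both MMH-D3 arrays, against 20.8% and 21.4% of all genes tested. The list median was 0.29. The integrin subunit Itga1 had 3.40 and 1.73 in MetE14/3 and WTE14/1 against 51.0 and 209 (-4.21, SE 0.71, limma adjusted p = 0.0640). It passed with arrays shifted to a common median (-4.26, SE 0.72, limma adjusted p = 0.0470). Itga1 passed the filter on low signal only through the MMH-D3 arrays, which fixes its sign. The syndecan Sdc3, a neural heparan sulphate proteoglycan, had 265 and 270 against 28.8 and 44.3 (2.59, SE 0.45, limma adjusted p = 0.0705). It was 1.34 with the median over probe sets, and 0.47 without MetE14/3, where another probe set came to represent it (limma adjusted p = 0.927). Other syndecans, also chosen after their values were seen, lay on both sides of MMH-D3. Sdc4 and Sdc1 lay below both arrays, at -1.37 (SE 0.40) and -1.05 (SE 0.38), and Sdc2 above both, at 0.92 (SE 0.43). The glypican Gpc1, chosen after its values were seen, binds Slits and had 920 (MetE14/3) and 122 (WTE14/1), compared with 8.10 and 1.11 (5.25, SE 1.07, limma adjusted p = 0.103). It passed the adjusted threshold with the poly-A pair as a block (limma adjusted p = 0.0294). The difference was 6.83 without WTE14/1. Gpc1 passed the filter on low signal only through the RLSC arrays, which fixes its sign.

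Of 8 tested netrin receptors and related proteins none passed, and none had an unadjusted p under 0.05. The netrin receptor Neo1 had 806 and 736 against 345 and 565 (0.77, SE 0.41), which was -0.41 when its probe sets were summarised by their median. The netrin G gene Ntng1 had 3.20 and 12.4 against 16.3 and 26.9 (-1.41, SE 0.62). Dcc, the classical netrin receptor, chosen after its values were seen, had 22.0 and 68.3 against 24.0 and 55.9 and overlapped (-0.12, SE 0.62).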

How the data were processed

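RNA of 4 arrays was compared, 2 of MMH-D3 and 1 for each of 2 RLSC lines. The deposited values are probe set intensities on a linear signal scale, which the authors made with GCOS, as the submitters' processing notes name it. Its version is not given in the sources used here. From them, log2(signal + 4) was taken, quantile normalized and filtered at the 40th percentile of mean signal over probe sets (27022 left). Where several probe sets annotated to 1 symbol passed, the one highest on average stood for the gene. Groups were compared with limma 3.58.1 in R 4.3.3 (eBayes with an intensity trend, 2 residual and 4.24 prior degrees of freedom) and Benjamini-Hochberg adjustment over all genes. The script was tested on simulated data. The number of arrays limits the precision.

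Members were named with values on every array if they passed, differed at least 4-fold with groups apart, were at least 4-fold apart between the RLSC lines, or had the highest mean of their family. Other members were given by role, some of them, such as Sema3e, Efna4 and Ephb3, also with values on every array. Of each pathway list, the genes that passed or else the 2 with the smallest p were named. Members and lists were chosen with earlier results of these data known. Alternatives covered normalization, pseudocount, filter, probe set choice, variance trend, poly-A pairs and each array left out. Promoters came from RefSeq's table, and all 63 members matched by Entrez identifier.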

Additional observations from a re-analysis of the deposited data

Results flagged for a closer look

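At 7 of the 45 members past the filter the RLSC lines lay on opposite sides of both MMH-D3 arrays, which is 15.6% against 11.4% of all genes tested. With 1 array for each line the difference was not tested. On the log2 scale, MetE14/3 minus WTE14/1, MetE14/3 was the higher line for the semaphorin co-receptor Nrp2 (2.57) and the plexin Plxna2 (1.95). WTE14/1 was the higher line for Plxnb3 (-3.29), Sema7a (-1.66), Sema3f (-1.48), Epha4 (-0.71) and Sema6a (-0.59). MetE14/3 is in the high and WTE14/1 in the low poly-A pair, so line and pair cannot be told apart.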

How the results depend on the processing

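Of the 45 members, 30 kept their sign under all alternatives with a test in which they were past the filter. Of these, 27 also kept it within both poly-A pairs. Over all 45 members, 13 changed sign in 1 pair. With limma, 43 never passed. The 115 genes called became 184 with arrays shifted to a common median, 9 without a filter and 0 to 206 with 1 array left out. The 0 members called became 1 (Ntn1) with a common median or a pseudocount of 16, and 0 to 1 with 1 array left out (Sema4a, without MetE14/3). The 198 probe sets called became 130 with a pseudocount of 1, 40 without a filter, 95 without the intensity trend and 0 to 184 with 1 array left out. Of the members' probe sets, 0 were called in the main fit and 2 with arrays shifted to a common median. The 646 genes at least 4-fold apart between the lines became 400 with a pseudocount of 16 and 386 with a filter at the 60th percentile. Without quantile normalization Plxna2 turned to 0.13 and Sema7a to 0.010, and with a pseudocount of 16 Plxna2 turned to 0.0095. With the median of probe sets Plxna4 turned to -0.029, Sema3f to 0.14, Sema6c to -0.0039 and Neo1 to -0.41. The median over all genes was 0.10 without quantile normalization and -0.11 with a common median, against 0.03.

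With 1 array left out, 15 members changed sign: Epha4 (-0.52 to 0.20), Robo1 (-0.12 to 2.41), Efnb1 (-0.18 to 0.85), Efnb3 (-0.35 to 1.76), Ntn1 (-0.19 to 4.26), Ntn4 (-0.25 to 1.08), Nrp2 (-0.94 to 1.66), Plxna2 (-0.97 to 0.99), Plxna4 (-0.17 to 0.68), Sema3c (-0.46 to 0.15), Sema3f (-0.94 to 0.56), Sema4f (-2.14 to 0.40), Sema6a (-0.21 to 0.37), Sema6c (-0.51 to 0.83) and Sema7a (-1.0 to 0.64). For Ntn1 another probe set then represented the gene. Epha4, Nrp2, Plxna2, Sema3f, Sema6a and Sema7a had the RLSC lines on opposite sides of both MMH-D3 arrays, so their sign depended on which line was kept. For the remaining members the cause was not tested. Each such fit leaves 1 array in a group, assumed to vary like the other group. Pairing by replicate number was not possible, since the RLSC labels carry none. Blocking instead on the poly-A pairs seen in the data called 164 genes and 0 members. Signals near the filter level of 11.7 limit what can be said of Robo3, Sema6a, Sema5b, Ephb6, Efnb3 and Robo1, among others, and of the 18 members below it.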
